A study of Mus musculus and Rattus norvegicus with 37 samples.

Results

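Elastin (Eln), the microfibril genes Fbn1 and Mfap2, the elastin-binding fibulin Fbln5, the 5 lysyl oxidase genes Lox, Loxl1, Loxl2, Loxl3 and Loxl4, and Sparc were followed through 37 liver RNA-seq libraries. They are 10 genes, taken by gene name, of 47929 entries with a name of their own in each mouse table and 28026 in each rat table, and all 10 were present in each of the 4 tables. The livers came from 21 mice and 16 rats in 8 groups, and the study asked how blocking miR-29 changes the liver and whether hepatic Sirt1 is needed for it.

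The mice were C57BL/6J females on chow. LNA29 is a pair of locked nucleic acid inhibitors, one against miR-29a and one against miR-29b and miR-29c, given subcutaneously once at 20 mg/kg each, and non-fasted liver was taken on day 7. The WT/Floxed group joined wild-type mice of 9 to 11 weeks and floxed mice of 15 to 20 weeks, with 8 LNA29 livers (4 WT, 4 floxed) and 5 saline livers (3 WT, 2 floxed), after the authors had left out 1 floxed saline mouse. Mice labelled L-Sirt1 KO, of 15 to 20 weeks with Sirt1 deleted in the liver alone, gave 4 LNA29 and 4 saline livers. The rats were male Zucker rats. Fatty rats (ZFR), which carry a leptin receptor mutation, were compared with lean rats (ZLR) at 5.5 months (n = 4 each). ZFR of 3 months received BT2, an inhibitor of the branched-chain ketoacid dehydrogenase kinase, at 20 mg/kg per day intraperitoneally for 1 week, or DMSO vehicle (n = 4 each).

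An elastic fibre is a core of elastin laid on a scaffold of fibrillin microfibrils. Tropoelastin, the soluble product of Eln, is guided onto the scaffold by fibulins and is then cross-linked by lysyl oxidases, copper enzymes that oxidise lysines and that also cross-link collagen. SPARC is a secreted collagen-binding glycoprotein that is not part of the fibre itself. In liver, elastic fibres lie in portal tracts and vessel walls and gather in fibrotic scars. miR-29 is known as a repressor of matrix genes. MicroRNAs of one family share a seed, bases 2 to 8 of the mature RNA, and pair through it with target transcripts, mostly in the 3′ UTR.

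The mature mouse miR-29 sequences (RefSeq, GRCm38.p6) show what LNA29 was designed against, with the seed in capitals. The 3 share 1 seed and differ only outside it.
mmu-miR-29a-3p: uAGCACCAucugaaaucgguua
mmu-miR-29b-3p: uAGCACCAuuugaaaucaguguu
mmu-miR-29c-3p: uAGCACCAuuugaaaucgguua

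The reverse complement of the seed, TGGTGCT on the transcript strand, was searched in every annotated 3′ UTR of the genes (GENCODE M21, GRCm38). It was found in 6 of the 10: 3 times in Eln, 3 times in Lox, 2 times in Fbn1, 2 times in Loxl2, and 1 time each in Loxl4 and Mfap2. Of the 15811 genes tested in the WT/Floxed table, 13526 had an annotated 3′ UTR. These searched genes are the base of each share of matches given here. Of them, 16% held at least 1 such match, 2.64% at least 2 and 0.51% at least 3. Fbln5, Loxl1, Loxl3 and Sparc had none. The 25-base windows below carry the matches in Eln, Fbn1, Loxl2, Loxl4 and Mfap2, each written on the transcript strand with the 7 matching bases in capitals.
Eln site 1, chr5:134703731-134703755, minus strand: cctcatcaacgtTGGTGCTactgct
Eln site 2, chr5:134703484-134703508, minus strand: tccaagggaaatTGGTGCTacatgt
Eln site 3, chr5:134703471-134703495, minus strand: ggtgctacatgtTGGTGCTtcttct
Fbn1 site 1, chr2:125301168-125301192, minus strand: ctgttgtctgttTGGTGCTagtaaa
Fbn1 site 2, chr2:125300918-125300942, minus strand: gagggtttgtaaTGGTGCTtattaa
Loxl2 site 1, chr14:69694736-69694760, plus strand: cagctcatggaaTGGTGCTactggt
Loxl2 site 2, chr14:69695098-69695122, plus strand: tagcattgtgaaTGGTGCTaatata
Loxl4 site 1, chr19:42595015-42595039, minus strand: gccccctctaagTGGTGCTttgcaa
Mfap2 site 1, chr4:141015634-141015658, plus strand: ccctgcctgaccTGGTGCTttctcc

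When the match is followed by A it makes the longer 8-base form, TGGTGCTA. Eln had 2 of these, Loxl2 had 2 and Fbn1 had 1, so that 3 of 10 genes carried the 8-base form against 3.47% of all searched genes. Eln sites 2 and 3 began 13 bases apart, which is why the end of site 2 opens the window of site 3. The single Loxl4 match was in 1 of the 3 annotated transcripts with a 3′ UTR, and both Loxl2 matches in 1 of 2. Sparc, with no 7-base match, held a weaker form, GGTGCTA (the 6 inner bases followed by A), at 2 places 33 bases apart in its 1085-base UTR, and Fbln5 held it once. This form was searched after the absence from Sparc had been seen, and overlaps the 8-base form in its letters. With it counted, 8 of 10 genes and 19.6% of all searched genes had a match.
Sparc site 1, chr11:55395463-55395487, minus strand: gcctggggataaGGTGCTAacatag
Sparc site 2, chr11:55395430-55395454, minus strand: gaatacattaacGGTGCTAaaaaaa

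The coding sequence of Eln held TGGTGCT 11 times, and only 4 of the searched genes, Eln among them, held it 11 times or more. Fbn1 and Loxl2 held it 2 times each in coding sequence and the other 7 genes did not hold it there. Of the searched genes, 21.3% held at least 1. The coding search was also added after the data had been seen. A match in letters is a description and not a shown binding site.

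**Figure D1:**
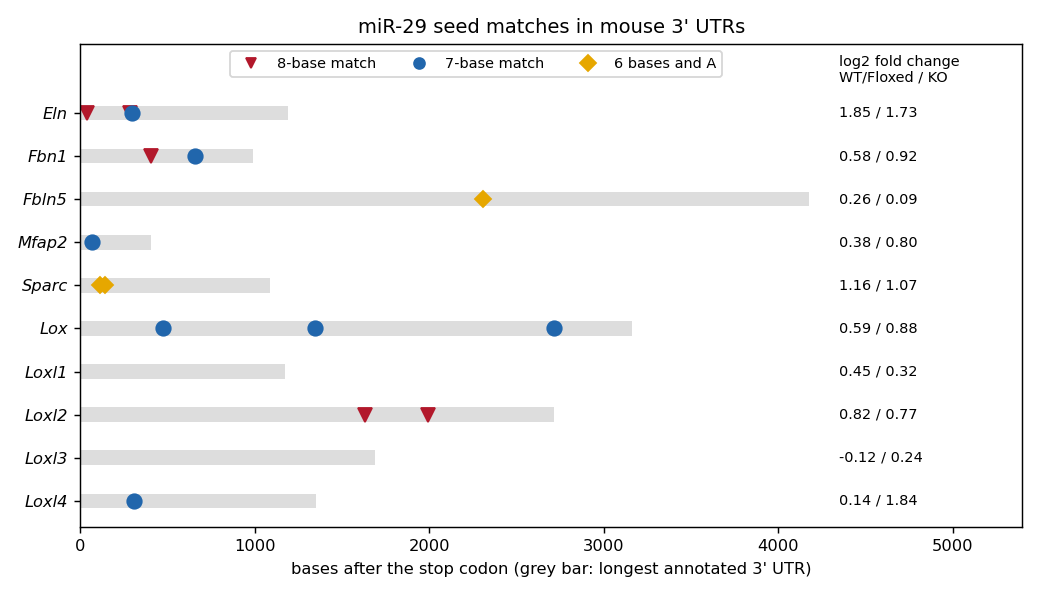
Position of miR-29 seed matches in the longest annotated mouse 3′ UTR of each gene, in bases after the stop codon, with the log2 fold change of LNA29 over saline in each genotype at the right. The triangles (8-base matches) lie in Eln, Fbn1 and Loxl2 alone, and the diamonds (6 inner bases and A) in Sparc and Fbln5.

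Values are DESeq2-normalized counts, in which each table was scaled on its own, so levels are compared within a table only. The estimated depth was 42.6 to 78 M reads per mouse library (0.746 to 1.37 normalized counts to a read) and 0.188 to 58.5 M per rat library (0.0322 to 10.5 to a read). Of the rat libraries, 6 of 16 were under 1 M reads: ZLR replicates 3 and 4, ZFR replicate 3, BT2 replicates 1 and 4, and vehicle replicate 4. Gene-level Sirt1 counts were 492.7 to 699 in WT/Floxed livers and 535 to 617 in livers labelled L-Sirt1 KO, in tables scaled separately. These counts cover the whole gene, and since the deleted part was not counted on its own they do not check the label. The authors compared hepatic Sirt1 between the genotypes by RT-qPCR, which is not part of the data used here.

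Per kilobase of the longest protein-coding transcript, Sparc was by far the most abundant of the 10 genes in saline mice, at 1609 ± 103 normalized counts per kb (SD, n = 5) in WT/Floxed livers. Loxl4 followed at 196 ± 109 per kb, then Eln at 63.9 ± 9.27, Fbln5 at 54.8 ± 13.5, Loxl1 at 42.9 ± 5.66, Loxl2 at 38.6 ± 7.98 and Loxl3 at 28. The range of each of the genes from Loxl4 to Loxl2 overlapped that of the next one down, so neighbours in this order were not set apart by their spread. Fbn1 lay at 16.4 ± 3.08 per kb, below every Loxl3 value, and Mfap2 (8.08) and Lox (6.5) lay lowest and overlapped each other. The same order held in saline livers labelled L-Sirt1 KO, from Sparc at 1793 ± 124 per kb (n = 4) to Lox at 5.62 ± 1.96. Because whole liver was sequenced, a change in RNA per cell and a change in the number of cells of a type cannot be told apart in any of the results that follow.

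In WT/Floxed mice given LNA29, the transcripts of elastin, of fibrillin-1, of 1 lysyl oxidase and of Sparc were higher than with saline. Eln, Fbn1, Loxl2 and Sparc passed the study's criteria for a change (p under 0.05, adjusted p under 0.2, mean above 50 normalized counts and fold change above 1.2), which makes 4 of 10 genes higher and 0 lower. Over all 15811 genes tested, 2.42% passed as higher and 1.93% as lower. The 10 genes were chosen with earlier results of these data known, and 8 of them had a mean above 50 in each mouse table. Their counts beside the shares of all genes are therefore a description. The log2 fold change was positive for 9 of the 10 genes, with a median of 0.51 beside 0.0017 over all genes. Mfap2 reached the minimum mean of 10 for testing only through the LNA29 livers, in both mouse tables.

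Eln, the gene of the fibre core, was read at 243, 213, 226, 306 and 243 in the 5 saline livers, and at 666 (lowest), 863 (median) and 1225 (highest) in the 8 LNA29 livers. Every LNA29 liver was above every saline liver, with 666 as the lowest of the first and 306 as the highest of the second. The fold change was 3.6 (95% confidence interval 2.85 to 4.53), a log2 fold change of 1.85 ± 0.157 (SE) with a limma adjusted p of 4.66e-05, and the exact two-sided permutation p was 0.000777, the smallest that 1287 splits allow.

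Sparc, the collagen-binding glycoprotein, was read at 3557, 3518, 3648, 4109 and 3668 in saline livers and at 6895, 8288 and 9820.0 (lowest, median, highest) after LNA29. The groups again did not overlap, which 0.942% of all tested genes did in the direction of higher values. Sparc rose 2.23-fold (1.95 to 2.54), a log2 fold change of 1.16 ± 0.0883, and its limma p ranked 1st of all genes (adjusted p = 2.44e-05).

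Loxl2, a lysyl oxidase that cross-links collagen IV, was at 215, 152, 243, 246 and 170.1 in saline livers and at 279, 374 and 467 (lowest, median, highest) after LNA29. No LNA29 liver fell to the highest saline value. The rise was 1.76-fold (1.4 to 2.2), with a log2 fold change of 0.82 ± 0.152 and a limma adjusted p of 0.0179.

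Fbn1, which encodes the microfibril backbone fibrillin-1, was at 204, 166, 230.0, 233 and 152 in saline livers and at 218, 294 and 367 (lowest, median, highest) after LNA29. Here 1 LNA29 value, the 218 of a floxed mouse, lay inside the saline range. It was above both floxed saline values (166 and 152) and overlapped those of WT mice only. The rise was 1.5-fold (1.19 to 1.87), with a log2 fold change of 0.58 ± 0.152 and a limma adjusted p of 0.0839.

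The other 6 genes did not pass the criteria. Lox, the founding lysyl oxidase, had a mean of 46 ± 13 (SD, n = 8) after LNA29 and 30.8 ± 11.8 (n = 5) with saline, and its log2 fold change of 0.59 ± 0.244 had an adjusted p of 0.306. Loxl1, the lysyl oxidase most closely tied to elastin, had a log2 fold change of 0.45 ± 0.188 and an adjusted p of 0.313, which became 0.176 and passed when WT or floxed background was a term. Fbln5 was at 383 ± 87.8 against 319.5 ± 78.9 and Loxl3 at 113 ± 44.4 against 115 ± 9.32. The widest spread was that of Loxl4, at 485 to 1314 after LNA29 and 263 to 1260.1 with saline, with a log2 fold change of 0.14 and an interval of -0.62 to 0.89.

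**Figure D2:**
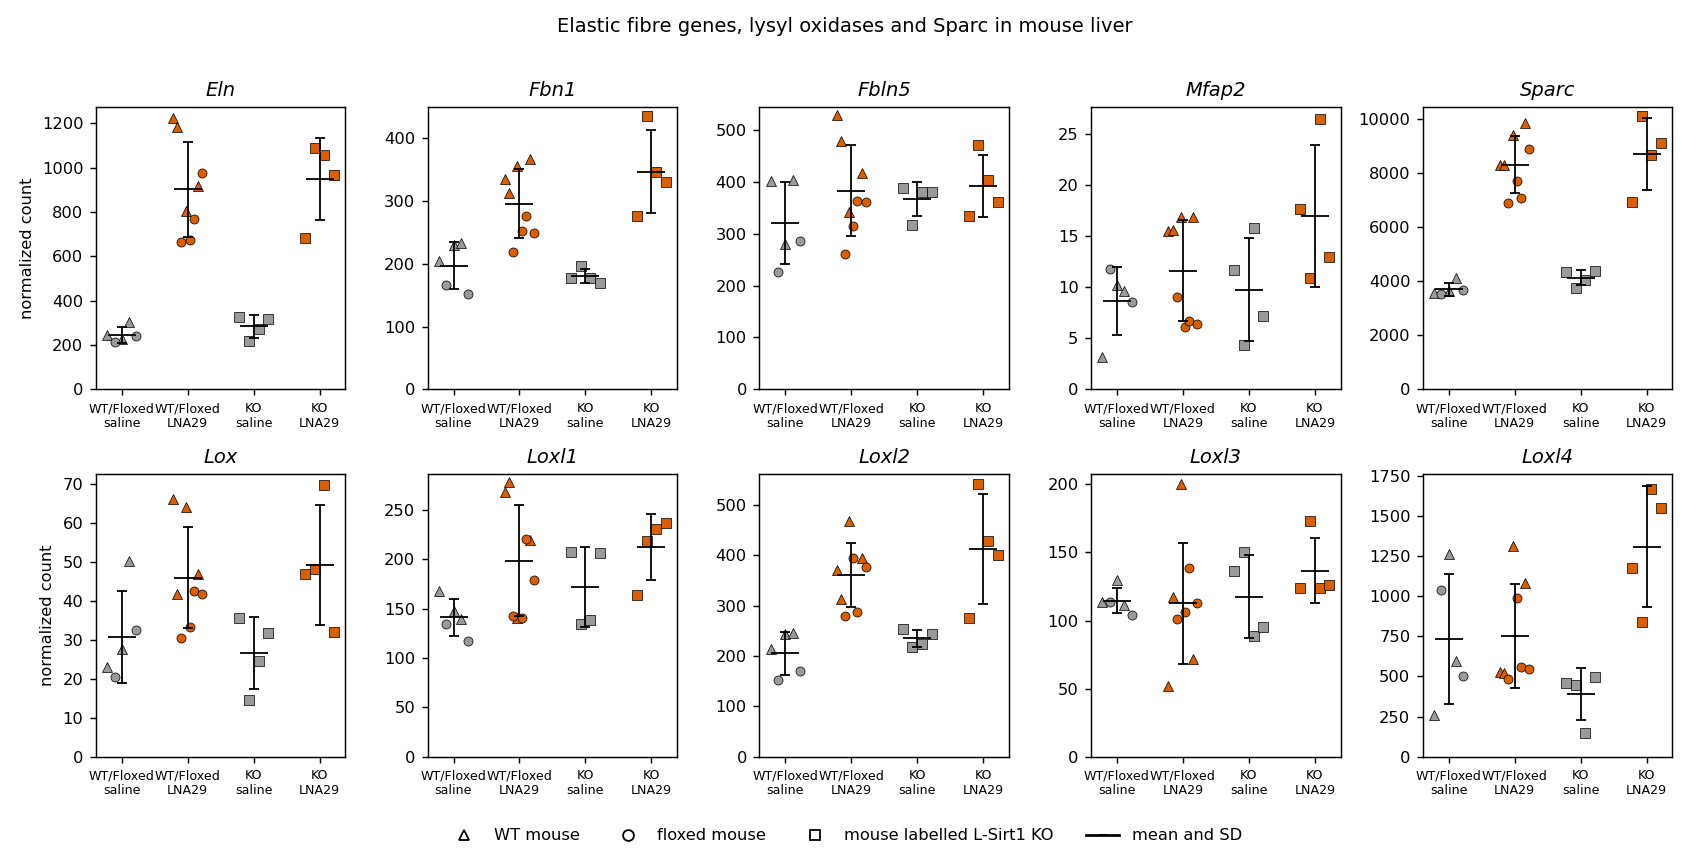
DESeq2-normalized counts of the 10 genes in every mouse liver, by group, with 1 point per mouse, its genotype as the shape, and the mean and SD of the group as the bar. Eln and Sparc separated LNA29 from saline in both genotypes, while for Loxl4 the 4 LNA29 values (842 to 1668) lie above the 4 saline values (150.4 to 498) in mice labelled L-Sirt1 KO and the groups overlap in WT/Floxed mice.

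Both backgrounds of the WT/Floxed group gave the rise in Eln, Fbn1 and Sparc. In the 7 WT mice alone the log2 fold changes were 1.99 for Eln, 1.24 for Sparc and 0.62 for Fbn1, and in the 6 floxed mice alone 1.74, 1.08 and 0.64, each past the criteria. Loxl2 was at 0.70 in WT mice (adjusted p = 0.228, not past them) and at 1.03 in floxed mice (adjusted p = 0.0947). Mfap2, a small microfibril glycoprotein read at very few counts, was at 15.5, 15.6, 16.9 and 16.9 in the 4 WT LNA29 livers and at 9.06, 6.12, 6.75 and 6.44 in the 4 floxed LNA29 livers. The WT saline livers had 3.15, 10.2 and 9.68 and the floxed saline livers 11.8 and 8.54. Fbn1 also differed by background, at 312 to 367 in WT and 218 to 276 in floxed LNA29 livers. Its saline values were 204 to 233 in WT mice and 152 and 166 in floxed mice. The share of all genes split this way was not counted. WT mice were also younger than floxed mice, so background and age cannot be told apart. The differences in Mfap2 and Fbn1 between backgrounds were not tested.

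In mice labelled L-Sirt1 KO the same 4 genes were higher after LNA29, and Loxl4 was higher too. Eln, Fbn1, Loxl2, Loxl4 and Sparc passed the criteria, 5 of 10 higher and 0 lower, where 1.19% of 15885 tested genes were higher and 0.68% lower. All 5 had no overlap between groups, as did 3.65% of all tested genes in that direction. All 10 log2 fold changes were positive, with a median of 0.84 beside -0.0027 over all genes.

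Eln was read at 328, 219, 272 and 319 with saline and at 683, 1088, 1059.6 and 969 with LNA29. The rise was 3.32-fold (95% confidence interval 2.5 to 4.39), a log2 fold change of 1.73 ± 0.181 with a limma adjusted p of 0.00783. Sparc was at 4339, 3757, 4043 and 4358 with saline and at 6933, 10102, 8656 and 9087 with LNA29, a 2.09-fold rise (1.75 to 2.51) with the same adjusted p of 0.00783. For both genes LNA29 replicate 1 was the lowest of its group.

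Fbn1 was at 176, 196, 177 and 169.7 with saline and at 275, 435, 345 and 329 with LNA29. Its saline values were held within 11.3 (SD), and its rise was 1.9-fold (1.51 to 2.39), with a log2 fold change of 0.92 ± 0.149 and a limma adjusted p of 0.0465. Loxl2 was at 255, 219, 225 and 244 with saline and at 276, 542, 429 and 401 with LNA29, where replicate 1 was only just above the saline range. Its log2 fold change was 0.77 ± 0.187 (adjusted p = 0.165). The Loxl2 call was lost with flow cell (adjusted p = 0.317) or replicate number (0.258) as a term, and with no minimum mean (0.211). It was also lost when LNA29 replicate 2, 3 or 4 or saline replicate 2, 3 or 4 was left out (log2 fold change 0.62 to 0.78).

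Loxl4, a lysyl oxidase family member, was at 461, 448, 150.4 and 498 with saline and at 1175, 842, 1668 and 1546 with LNA29. The lowest LNA29 value was above the highest saline value, although saline replicate 3 stood far below the rest of its group. The rise was 3.57-fold (1.99 to 6.4), a log2 fold change of 1.84 ± 0.376 with a limma adjusted p of 0.102, and the exact two-sided permutation p was 0.0286, the smallest that 4 against 4 allows. The call was lost with flow cell (adjusted p = 0.234) or replicate number (0.204) as a term and without LNA29 replicate 3 (0.259) or 4 (0.287). The log2 fold change stayed between 1.70 and 1.84 in these, and was 1.43 to 2.03 when each library was left out. Without LNA29 replicate 3 or replicate 4, therefore, 3 genes and not 5 passed.

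Among the remaining genes, Lox was at 35.8, 14.6, 24.5 and 31.8 with saline and at 47, 48.2, 69.9 and 32.1 with LNA29, a log2 fold change of 0.88 ± 0.331 with an adjusted p of 0.357. Its mean of 38 was also under the limit of 50. Mfap2 (0.80), Loxl1 (0.32), Loxl3 (0.24) and Fbln5 (0.09) had intervals that included 0. Fbln5 was the steadiest, at 392 ± 59.7 against 366 ± 33.5.

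**Figure D3:**
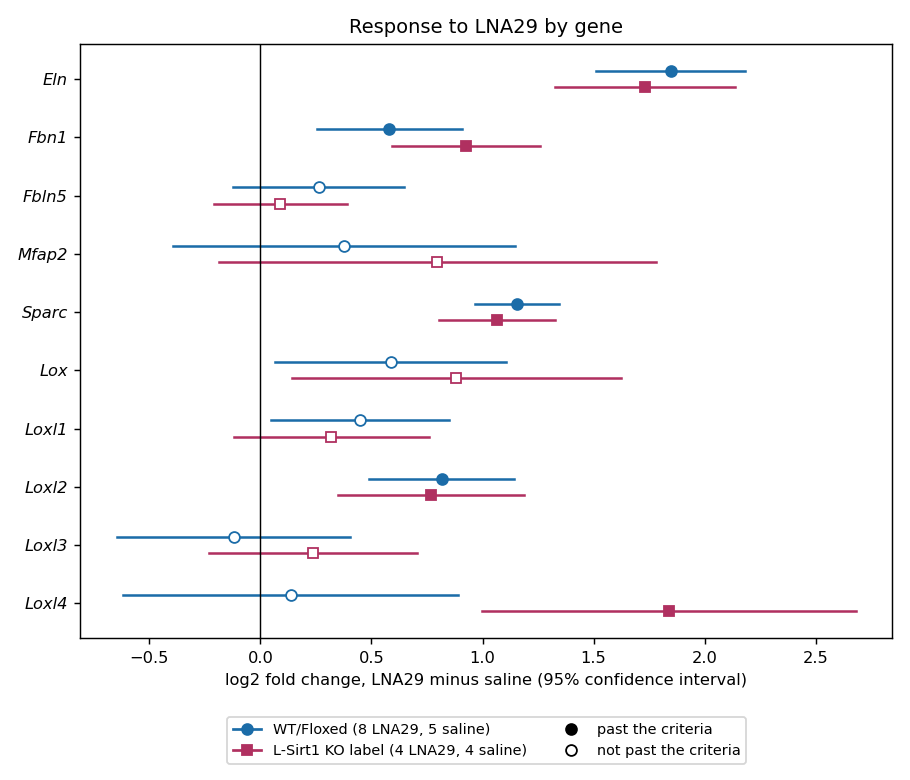
Log2 fold change of LNA29 over saline with its 95% confidence interval for each gene, in WT/Floxed mice (circles) and mice labelled L-Sirt1 KO (squares), filled where the gene passed the criteria. The intervals of the 2 genotypes overlap widely for Eln, Sparc and Loxl2, and those of Loxl4 do not (-0.62 to 0.89 and 1.00 to 2.68). The difference between genotypes in Loxl4 did not pass when tested as an interaction (limma adjusted p = 0.364).

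The difference between genotypes was tested as an interaction across the 15601 genes measured in both mouse tables, of which 0.0449% passed at an adjusted p under 0.2 (9.14% had an unadjusted p under 0.05). None of the 10 genes passed. The Eln response was smaller by 0.12 in mice labelled L-Sirt1 KO (interval of the log2 difference -0.64 to 0.41), that of Sparc by 0.09 (-0.40 to 0.21) and that of Loxl2 by 0.05 (-0.57 to 0.47). Fbn1 responded more by 0.34 (-0.13 to 0.81). The log2 differences of Fbln5 (-0.17), Lox (0.30), Loxl1 (-0.13), Loxl3 (0.36) and Mfap2 (0.42) had adjusted p-values of 0.827 to 0.931. The largest difference was that of Loxl4, whose response was greater by 1.70 ± 0.573 (0.51 to 2.89), with an unadjusted p of 0.0074 and an adjusted p of 0.364. With floxed mice alone, which match the mice labelled L-Sirt1 KO in age, it was 2.06 (adjusted p = 0.262). With library quality weights its adjusted p was 0.212, in a setting where 4.17% of all genes passed as higher and 3.65% as lower.

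Among other genes of elastic fibres and microfibrils (fibulins, emilins, latent TGF-β binding proteins and others, 15 in all), 0 of the 13 tested passed in either direction in either mouse table. The gene of that list with the largest difference was Ltbp2 in both, at -0.43 (adjusted p = 0.522) in WT/Floxed mice and 0.68 (adjusted p = 0.529) in those labelled L-Sirt1 KO. Over that list the median was 0.13 and 0.15. Of the 4 genes for processing or binding lysyl oxidases, 3 were tested and 0 passed, with Postn at -0.11 in WT/Floxed mice and Fn1 at -0.19 in mice labelled L-Sirt1 KO as the largest.

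Of the 7 SPARC family genes besides Sparc, 5 were tested in each mouse table, and 1 passed in mice labelled L-Sirt1 KO and 0 in WT/Floxed mice. It was Fstl1, a secreted SPARC relative, at 909 ± 203 against 460 ± 69.4 (n = 4 each; log2 fold change 0.96, adjusted p = 0.0794). In WT/Floxed mice it was at 0.59 (adjusted p = 0.38), and the adjusted p of the difference between genotypes was 0.833. Of the 7 elastin-degrading proteases, 6 were tested and 1 passed in each table, Mmp2, the gelatinase A gene. Its log2 fold change was 1.04 (adjusted p = 0.0295) in WT/Floxed mice and 0.98 in those labelled L-Sirt1 KO, where its adjusted p of 0.1999 was just inside the limit, so that a protease gene was higher beside the fibre genes. Mmp2 held 1 seed match in its 3′ UTR and Fstl1 held 0.

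Genes with the most similar pattern over the 21 mouse livers were found by the mean absolute difference in log2 values, each set against the saline mean of its table. For Eln these were Ccdc28b (0.37), Col3a1 (0.37), which encodes a fibrillar collagen chain, and Gm11832 (0.41), where the median over all 15601 genes was 1.14. For Fbn1 they were Adamts9 (0.13), a secreted protease gene, Fermt2 (0.16), an integrin activator, and Loxl2 (0.17), with a median over all genes of 0.52. For Sparc they were the fetuin-A gene Ahsg (0.19), Ppic (0.20) and the desmosomal cadherin gene Dsc2 (0.20), with a median of 0.73. These livers share 2 tables, and the measure is a description.

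Markers of the liver cell types that make matrix were read beside these genes. Of 8 stellate cell markers 0 passed in either mouse table, and their summed level was 18147 to 22006 after LNA29 and 16744 to 22652 with saline in WT/Floxed mice, and 21531 to 23229 against 20916 to 24439 in mice labelled L-Sirt1 KO. Of 4 myofibroblast markers 0 of 3 tested passed, and their summed level was 458 to 1306 against 371 to 1160 in WT/Floxed mice. In mice labelled L-Sirt1 KO it was 466 to 3078 against 364 to 999, and vascular smooth muscle markers were at 423 to 2070 against 429 to 725. Of 3 tested vascular smooth muscle markers 0 passed in either table. The log2 fold change was positive for 2 of them in WT/Floxed mice (median 0.18) and for 3 in mice labelled L-Sirt1 KO (median 0.49). Portal fibroblast markers (0 of 3 tested passed in each table) were at 378 to 489 against 346 to 450.1 and at 421 to 572 against 359 to 486. The part of these cells in the rise of Eln, Fbn1, Loxl2, Loxl4 and Sparc was not tested. Hepatocyte markers were all tested, with a summed level of 6031875 to 7644647 after LNA29 and 4470086 to 7409127 with saline in WT/Floxed mice. In mice labelled L-Sirt1 KO it was 6133670 to 7006972 against 4983440 to 6329181. Of these markers Apoa1 was higher in WT/Floxed mice (0.51, adjusted p = 0.0312). Of 6 endothelial and 4 cholangiocyte markers 0 passed, and of 5 macrophage markers Clec4f (-0.29, adjusted p = 0.189) was lower in the mice labelled L-Sirt1 KO.

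In rats, 5 of the 10 genes reached the minimum mean of 10 normalized counts in the comparison of fatty with lean animals, namely Eln, Fbln5, Fbn1, Loxl4 and Sparc. Sparc was the 1 gene of these that passed an adjusted p under 0.05, and it was higher in ZFR. Over all 8633 genes tested, 1.8% passed as higher and 2.46% as lower.

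Sparc was at 164, 174, 116 and 188 in ZLR and at 270.3, 347, 257 and 333 in ZFR. Every fatty rat was above every lean rat, which held for 7.8% of all genes tested. The rise was 1.89-fold (95% confidence interval 1.44 to 2.47), a log2 fold change of 0.92 ± 0.174 with a limma adjusted p of 0.0167. It stayed past the threshold without the libraries under 1 M reads (0.89, adjusted p = 0.0176) and was lost when no minimum mean was set (adjusted p = 0.0512) and without ZFR replicate 2 (0.85, adjusted p = 0.0621) or replicate 4 (0.87, adjusted p = 0.0628). ZLR replicates 3 and 4 rested on 11 and 18 reads of Sparc.

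Fbn1 and Fbln5 were also separate between the groups. Fbn1 was at 10.8, 11.7, 10.5 and 0 in ZLR and at 22.8, 45.9, 25.1 and 20.2 in ZFR, with an adjusted p of 0.22. Fbln5 was at 3.89, 4.83, 0 and 0 in ZLR and at 11.6, 23.3, 12.6 and 32.1 in ZFR, with an adjusted p of 0.125. The values of 0, and the single read of Fbn1 behind the 10.5, came from ZLR replicates 3 and 4, where the limit of 3 reads that a count of 0 allows is 31.6 and 31.3 normalized counts. These 2 libraries therefore could not show a difference in either gene. Both genes reached the minimum mean of 10 only through ZFR, with ZLR means of 8.27 for Fbn1 and 2.18 for Fbln5, so that passing a test here is no support for a difference. The limits of 3 reads cover counting error only.

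With each library weighted by its estimated reads, 14.5% of all tested genes passed as higher and 10.8% as lower. The log2 fold change of Sparc was then 0.79 ± 0.10 (adjusted p = 0.000406), and as values only those of Fbn1 and Fbln5 were 1.09 ± 0.15 and 1.54 ± 0.22. Without the libraries under 1 M reads, which leaves 2 ZLR and 3 ZFR and was chosen after the data had been seen, 2.92% of genes passed as higher, and the values were 2.02 for Fbln5 and 1.23 for Fbn1.

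Eln did not follow. It was at 15, 6.06, 0 and 20.2 in ZLR and at 5.07, 11.8, 10.1 and 21.1 in ZFR, and its sign turned with the weighting (0.75 unweighted, -0.80 weighted by reads). Loxl4 was at 34.6, 34.5, 63.2 and 31.3 against 45.8, 16.5, 37.6 and 40.4, with an adjusted p of 0.735. The other 5 genes were under the minimum mean for testing. Lox was at 0 to 9.67 over the 8 rats, Loxl1 at 0 to 9.33 and Mfap2 at 0 to 0.268. Loxl2 was at 2.93, 3.48, 0 and 0 in ZLR and at 5.32, 10.9, 10.8 and 11.3 in ZFR. Loxl3 was at 1.03, 1.81, 0 and 0 in ZLR and at 2.48, 4.71, 2.09 and 3.11 in ZFR. The values of 0 of Loxl2 and Loxl3 came from ZLR replicates 3 and 4, which could not show a difference at these levels.

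**Figure D4:**
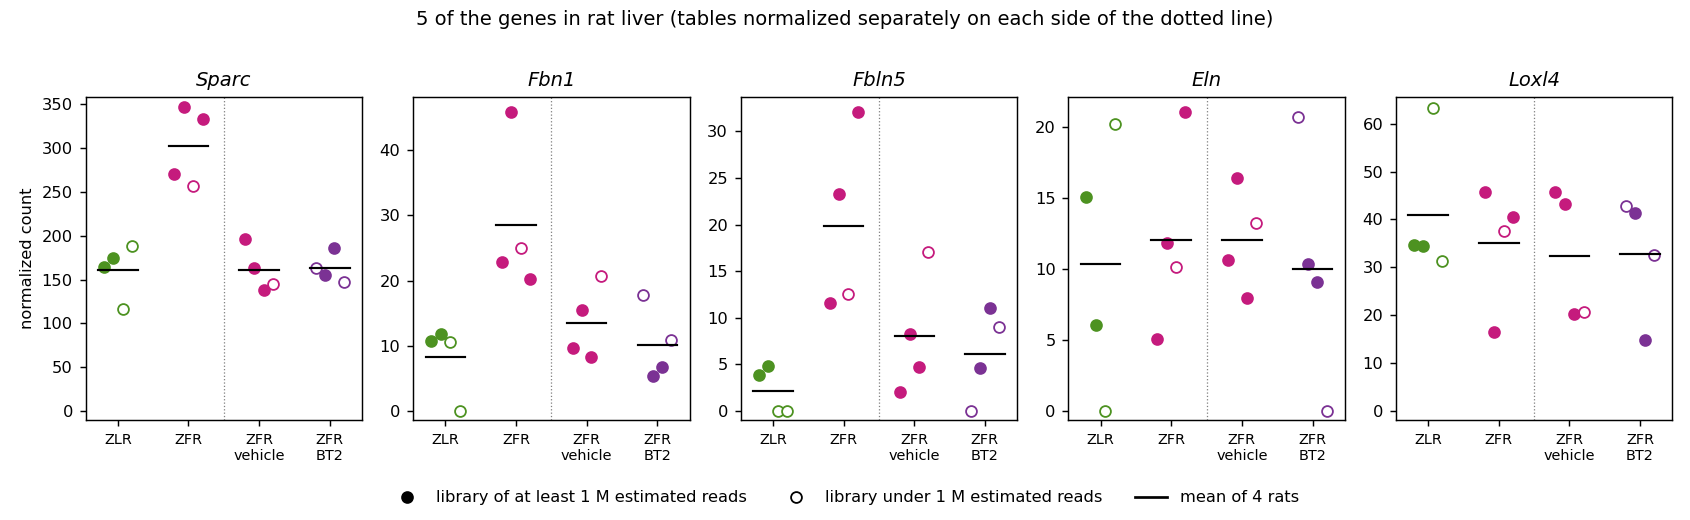
DESeq2-normalized counts of 5 genes in each rat liver, by group, with open circles for libraries under 1 M estimated reads and a bar at the mean of 4 rats. Sparc lies higher in ZFR than in ZLR. The values of Fbn1 and Fbln5 do too, but both genes reached the minimum mean only through ZFR. ZLR replicates 3 and 4 could not show a difference in either of these 2 genes. The values at 0 are open circles.

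Of the other elastic fibre genes tested in fatty and lean rats, 2 of 4 were higher in ZFR and 0 lower. They were Ltbp4, a latent TGF-β binding protein gene that serves elastin assembly (120 ± 12.9 against 44.1 ± 19.6, log2 fold change 1.54, adjusted p = 0.0227), and Adamtsl2, a microfibril-associated gene (36.4 ± 19.8 against 8.76 ± 2.02, log2 fold change 1.83, adjusted p = 0.0363). Adamtsl2 reached the minimum mean only through ZFR, so its call adds no support to that count. Fn1, the fibronectin gene, was lower by 0.38 on the log2 scale (adjusted p = 0.0476), as 1 of 2 tested in its list. None of 3 SPARC relatives and none of 3 proteases tested passed, with Fstl1 at 3.11 (adjusted p = 0.134) and Mmp2 at 1.55 (adjusted p = 0.403).

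Myofibroblast markers moved in the same direction as Sparc in these rats. Their summed level was 123 to 153 in ZFR and 20.9 to 52.4 in ZLR, and of the 2 tested Acta2, the smooth muscle actin gene, passed (52.9 ± 8.91 against 11.4 ± 6.69, log2 fold change 2.24, adjusted p = 0.00768). Stellate cell markers were at 526.1 to 675 against 532 to 639 with 0 of 7 passing, vascular smooth muscle markers at 47.6 to 62.3 against 30.6 to 72.7 with 0 of 2, and portal fibroblast markers at 1.75 to 8.86 against 0 to 2.89 with none tested. Of 5 endothelial markers Stab2 was higher (log2 fold change 1.16, adjusted p = 0.033). Only 2 of those 5 log2 fold changes were positive, with a median of -0.12. Their summed level was 213 to 311 in ZFR and 223 to 289 in ZLR. Of 4 hepatocyte markers Cps1 (-0.58) and Ttr (-0.43) were lower. The part of these cells in the rise of Sparc was not tested.

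BT2 was not seen to move any of the 10 genes in fatty rats. Eln, Fbn1, Loxl4 and Sparc reached the minimum mean, and 0 of these 4 passed, where 0% of all 8405 genes passed in either direction with limma (3.95% had an unadjusted p under 0.05, and weighting by reads gave 1 gene lower). Sparc was at 197, 163, 138 and 145 with vehicle and at 164, 155, 186 and 147 with BT2. These values overlapped fully, and the fold change was 1.02 with an interval of 0.799 to 1.3, so that the data leave room for a change of that size. The intervals were wider for Loxl4 (fold 0.542 to 1.88), Fbn1 (0.325 to 1.71) and Eln (0.138 to 2.24), where 1 BT2 value of Eln, that of replicate 4, was 0 with a limit of 16.3. The 6 genes under the minimum mean were at 0 to 17 (Fbln5), 0 to 9.47 (Lox), 0 to 10.9 (Loxl1), 0 to 7.36 (Loxl2), 0 to 2.67 (Loxl3) and 0 to 1.22 (Mfap2) over the 8 rats. None of the other elastic fibre, SPARC family, lysyl oxidase partner or protease genes passed (4, 3, 2 and 2 tested), and none of the cell type markers did. The largest in these lists were Adamtsl2 (1.18), Sparcl1 (0.11), Bmp1 (0.33) and Ctss (0.28). BT2 and the fatty and lean rats stand in separate tables at different ages, and were not compared.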

How the data were processed

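The members and gene lists were chosen with earlier results of these data known. The authors aligned polyA+ libraries (single-end, 3 mouse and 2 rat flow cells) with STAR on mm10 or rn6, quantified them with Salmon and scaled them with DESeq2. The strand setting and annotation version are not given in the sources used here. The deposited values are a signal, normalized gene counts that the authors scaled within each of 4 tables. Depth was estimated as the sum over the value of 1 read. Between 65.1% and 88.7% of low values were whole multiples of that value (tolerance 0.01), so whole reads were not recovered and no count model was run.

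Genes with a mean of at least 10 were tested on log2(value + 1) with limma 3.58.1 (R 4.3.3, trended empirical Bayes) and Benjamini-Hochberg adjustment over all genes. Fold changes on this scale can understate those of low genes, and values of 0 in shallow rat libraries can enlarge them. Eln, with means of 12 in ZFR and 10.3 in ZLR, had a log2 fold change of 0.75. Mouse criteria were those stated in the text, and rats needed an adjusted p under 0.05. Nothing in the labels says more of the replicates than that they are separate samples. No library pair held identical values (0 pairs), and fits were tested on simulated data. Entries without a gene name held 0.0134% to 0.0461% of counts and were left out. Entries that share a name (130 in each mouse table, 4523 in each rat table, 0.0897% to 2.17% of counts, 0 of them listed genes) were left out too. All 10 genes were named in every comparison, and of other lists those past the criteria, or else the one with the largest change. Without strand, reads of Fbn1 and Gm9913 (2442 shared exonic bases) and of Loxl3 and Htra2 (535) cannot be told apart, nor those of Eln, Lox and Loxl2 and their antisense partners. Alternatives tried were another pseudocount, no minimum mean, TMM scaling, quality and precision weights, flow cell, genotype and replicate terms, another threshold, leaving out each library, single genotypes, and other seed matches.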

Additional observations from a re-analysis of the deposited data

Results flagged for a closer look

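Of 58 sets of values of 1 gene in 1 group of 4 to 10 livers, 6 held a library set apart from the rest by Dixon's gap ratio, where chance alone flags about 1 in 20. In WT/Floxed saline livers, Sparc was highest in replicate 4, at 4109 against 3518 to 3668 in the other 4. In mice labelled L-Sirt1 KO, Loxl3 was at 173 in LNA29 replicate 2 against 124 to 126, Fbln5 at 316 in saline replicate 2 against 379.7 to 388, and Loxl4 at 150.4 in saline replicate 3 against 448 to 498. In ZLR, Fbn1 was at 0 in replicate 4 against 10.5 to 11.7, and Loxl4 at 63.2 in replicate 3 against 31.3 to 34.6, both in libraries under 1 M reads where 1 read was worth over 10 normalized counts.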

How the results depend on the processing

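Eln and Sparc stayed past the criteria in both mouse tables under every alternative run. The count of 4 genes higher in WT/Floxed mice became 2 with the replicate block and was 2 to 5 over the alternatives. Fbn1 was lost at an adjusted p under 0.05 and Loxl2 with WT mice alone, and Loxl1 was gained with background as a term. That count stayed at 4 when each library was left out. The count of 5 in mice labelled L-Sirt1 KO became 3 with flow cell as a term, 3 with the replicate block and 3 at an adjusted p under 0.05, and was 3 to 5 when each library was left out. The block is only a number: same-numbered livers correlated at -0.28 to 0.24, and not every pair was over 0.1. In fatty against lean rats the count of 1 became 2 with a pseudocount of 10, 0 with no minimum mean, 2 with quality weights, 2 at an adjusted p under 0.2, 3 with precision weights and 2 without libraries under 1 M reads, and was 0 to 1 over left-out libraries (0 without ZFR replicate 2 or 4). The share of all genes that passed as higher moved with it, from 1.8% to 2.4%, 0.631%, 7.03%, 5.37%, 14.5% and 2.92% in the same order of settings, and the genes gained were Fbln5 and Fbn1, which reached the minimum mean only through ZFR. The seed search found 3 genes with the 8-base match in place of 6.

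Signs turned only where the value had not passed. In WT/Floxed mice, floxed animals alone gave 0.065 for Loxl3 and -0.23 for Loxl4, and left-out libraries -0.25 to 0.023 and -0.18 to 0.38. Left-out libraries gave -0.0018 to 0.16 for Fbln5 in mice labelled L-Sirt1 KO. For ZFR against ZLR, precision weights gave -0.80 for Eln and 0.27 for Loxl4, quality weights 0.12 for Loxl4, and left-out libraries -0.19 to 1.15 and -0.41 to 0.066. With BT2, Loxl4 was at -0.012 with TMM, -0.12 with quality weights, -0.38 with precision weights and -0.45 without libraries under 1 M reads, and Sparc at -0.064 with quality weights, and left-out libraries gave -1.07 to 0.093 for Eln, -0.039 to 0.13 for Sparc and -0.17 to 0.35 for Loxl4. In the interaction, quality weights gave 0.046 for Loxl2, and left-out libraries -0.17 to 0.014 for Sparc, -0.24 to 0.034 for Eln and -0.19 to 0.13 for Loxl2. The cause of these shifts was not tested. Leaving out rat libraries of under 0.1 of the median depth was not run, since none was that shallow by the rule. Of 774 alternative values for single genes, 714 kept direction and call, 22 lost the call, 7 gained it and 31 changed sign. In rats, 5 genes in fatty against lean animals and 6 in the BT2 comparison were under the minimum mean.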
